A study of Homo sapiens with 3 samples.

Results

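The expression of 41 interferon-stimulated genes, chosen by name from the genes that cells switch on in response to interferon, was described in KYSE140, an established human line from an oesophageal squamous cell carcinoma. A probe set carrying that gene's symbol alone was used for 40 of them, among 19775 genes measured in all, and STAT2 was not analysed here. Every array held total RNA of this one line, grown in RPMI medium with serum. One group was left untreated (1 array) and the other received cisplatin (2 arrays, titled B1 and B2), a platinum drug that crosslinks DNA, for 12 h at a labelled 10 mM. Cultured cells are usually given micromolar cisplatin, which leaves the labelled unit doubtful. The study asked how the drug changes the expression profile of the line. No group carried interferon, a virus or an altered gene, so the 40 genes are described at the level the line held them. Whether separate cultures gave B1 and B2 is not stated, and any p-value therefore reflects the spread among these arrays alone, possibly a technical one.

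Interferons are secreted proteins that bind receptors on the cell surface and activate the kinases JAK1 and TYK2, which phosphorylate STAT proteins. A complex that holds STAT2 and IRF9 binds a DNA element called the ISRE, and other STAT complexes bind a different element called GAS. The genes so switched on make proteins that block virus entry, RNA translation and replication, process antigens and sense foreign RNA. Many epithelial cancer lines express some of these genes without added interferon.

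The element that gives the family its name is shown in the promoters of 8 members: 5 that were low in array B2 alone, a pair that were high there, and IFI6, whose level was about the same in all arrays. The stretches come from RefSeq's annotation of GRCh38.p14 and run 5′ to 3′ on the strand of the gene, with 12 bases on each side of the outermost matches. Capitals mark matches to the ISRE core GAAANNGAA on either strand, so a match on the other strand reads as the reverse complement.
IFIT1, chr10:89392496-89392541, plus strand: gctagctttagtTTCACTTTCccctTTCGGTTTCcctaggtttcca
IFIT3, chr10:89332418-89332499, plus strand: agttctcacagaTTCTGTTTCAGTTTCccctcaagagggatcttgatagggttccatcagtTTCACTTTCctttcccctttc
IFIT5, chr10:89414512-89414585, plus strand: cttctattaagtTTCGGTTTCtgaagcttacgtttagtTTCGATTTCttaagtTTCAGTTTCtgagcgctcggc
ISG15, chr1:1013372-1013416, plus strand: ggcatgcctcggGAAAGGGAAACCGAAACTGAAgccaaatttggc
PSMB8, chr6:32844030-32844062, minus strand: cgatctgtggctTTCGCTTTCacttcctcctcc
IFITM1, chr11:313988-314054, plus strand: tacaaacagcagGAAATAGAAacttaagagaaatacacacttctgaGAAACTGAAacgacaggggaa
HERC5, chr4:88456983-88457066, plus strand: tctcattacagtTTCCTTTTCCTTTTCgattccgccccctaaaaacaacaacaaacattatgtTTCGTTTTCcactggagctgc
IFI6, chr1:27672265-27672360, minus strand: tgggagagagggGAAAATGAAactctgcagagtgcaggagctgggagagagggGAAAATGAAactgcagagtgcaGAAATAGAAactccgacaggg

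In ISG15 the 3 matches overlap in one unbroken run, whereas in IFIT1 the 2 matches are separated by a short gap and in IFI6 the 3 are spread out. The promoter table held windows for 33 of the 40 measured members, each from 250 bases before to 50 after a start of transcription. IFIT2, MX2, OAS2, OASL, IRF7, USP18 and TRIM22 are the 7 without one. The ISRE core was found in 22 of those 33 genes (66.7%), against 9.86% of all 27305 genes with a window and 8.11% of all 35116 windows. GAS, searched as TTCNNNGAA, which reads the same on both strands and can share its GAA or TTC with an ISRE match, was found in 13 of the 33 (39.4%), against 9.38% of all genes. These shares describe letters in a window, and a match is not a measured binding site.

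Intensities were deposited on a linear scale without a unit, and every difference below is of log2 values. For each gene the probe set with the highest mean over the 3 arrays was used. Levels of different probe sets were not compared, since each probe set has its own response. Of the 40 members, 26 had a mean log2 value of at least 6 (an intensity of 64) and 14 were dimmer. Without detection calls a dim gene may or may not have been detected, and the 3 arrays limit how precise any value is.

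The members were at nearly the same level in B1 as in untreated cells, and the low values lay in B2. In B1, 31 of the 40 were above the untreated array (77.5%, against 55% of all genes), but by little, the median difference being 0.15 (0.03 over all genes) and the range −0.31 to 0.52. None of the 40 reached 1.5-fold in B1, where 1.9% of all genes were at least 1.5-fold higher and 5.09% at least 1.5-fold lower. In B2, 19 of the 40 were above untreated (47.5%, against 56.6% of all genes), with a median of −0.06 (0.05 over all genes) and a range of −3.67 to 1.08. For the 26 members with a mean log2 of at least 6 the B2 median was −0.52 (−0.01 over all such genes), and for the 14 dimmer ones it was 0.16. There 13 members were at least 1.5-fold lower (32.5%, against 10.1% of all genes) and 3 at least 1.5-fold higher (7.5%, against 9.02%). The SD of the difference over the members was 0.19 in B1 and 1.08 in B2.

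**Figure D1:**
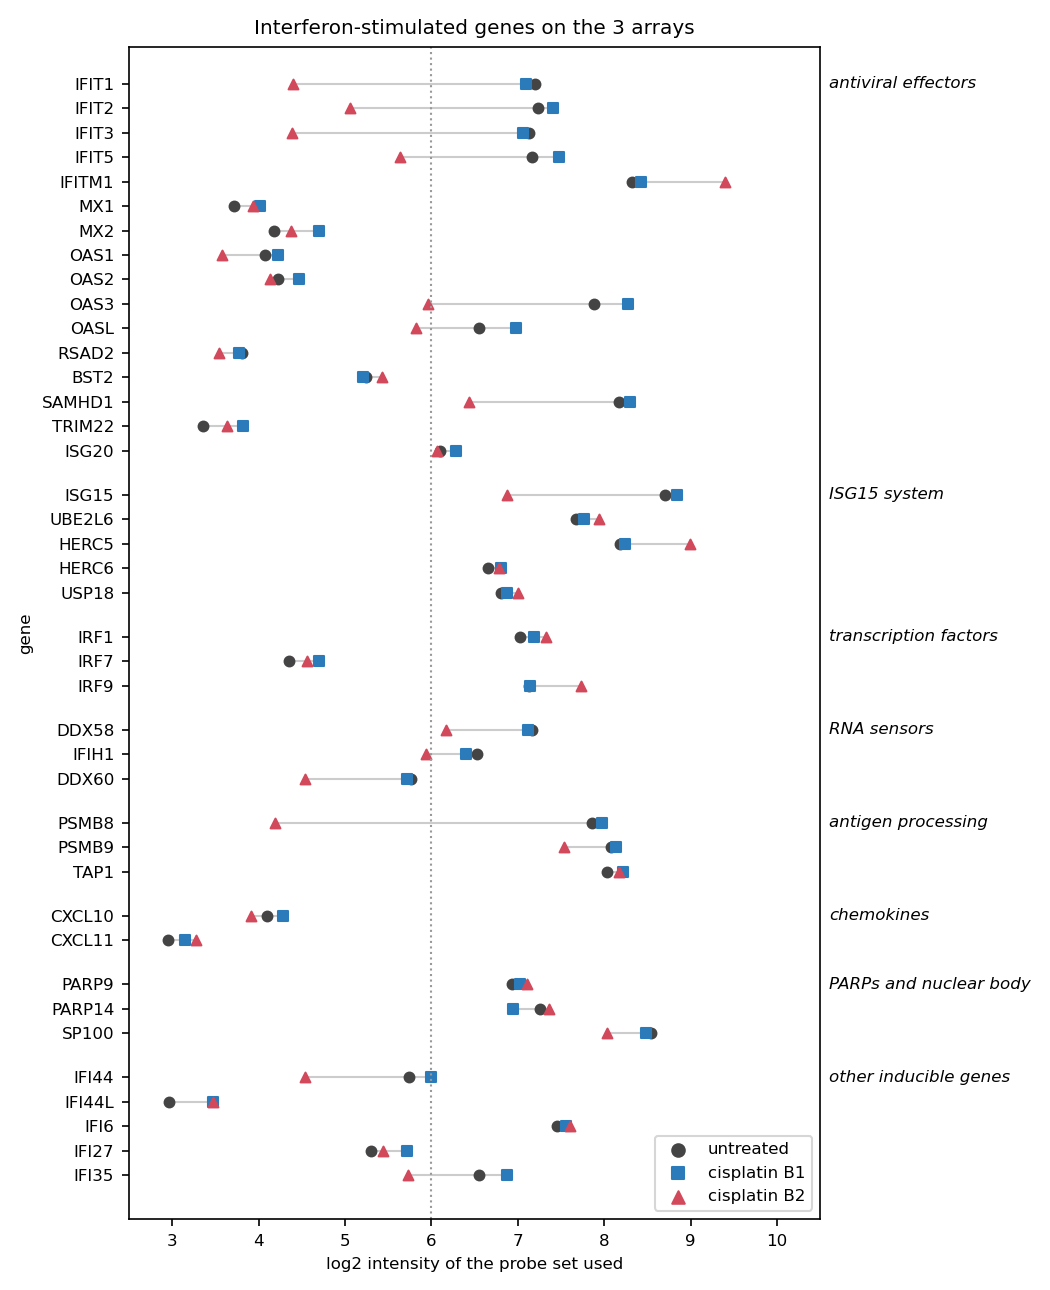
Log2 intensity (horizontal axis) of each of the 40 measured members, ordered by role, in the untreated array (circles), cisplatin B1 (squares) and cisplatin B2 (triangles), 1 point an array with no error bars; the dotted line marks a log2 value of 6. Circles and squares lie close together in every row, while triangles lie far to the left for IFIT1, IFIT2, IFIT3, PSMB8 and several others and to the right for IFITM1, HERC5 and IRF9.

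No member shifted by 1.5-fold in both cisplatin arrays. The 2 arrays were both above untreated for 17 members (42.5%, against 39.2% of all genes) and both below it for 7 (17.5%, against 27.4%). At least 1.5-fold in both arrays was reached by 0 members in either direction, where 0.956% of all genes were higher and 2.65% lower. The limma test called 0 of the 40 at an adjusted p under 0.05, and 0% of all 19775 genes, and no member had an unadjusted p under 0.05 (565 of all genes did). Adjusted p-values of the members ran from 0.97 to 0.9995 in limma. With 1 residual degree of freedom the fit can call little, so the lack of calls does not show that levels were equal. With 1 array against 2, an exact permutation test of any single member cannot give a p below 0.333. Both differences share the one untreated array, so their likeness or unlikeness is not used as evidence.

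A set of 10 members, IFIT1, IFIT2, IFIT3, IFIT5, OAS3, SAMHD1, ISG15, DDX60, PSMB8 and IFI44, was at least 2-fold lower in B2 than in each of the other arrays. They are 10 of 40, or 25%, where 2.41% of all genes met that rule. None of the 40 was at least 2-fold higher in B2 than in both other arrays, where 2.1% of all genes were. Among genes with a mean log2 of at least 6 the same rule took 8 of 26 members downwards (30.8%, against 3.9% of such genes) and 0 upwards (against 2.7%). The rule was chosen after the values had been seen, so these counts describe B2 and are not a test. Median differences were 0.14 (B1) and −1.87 (B2) for the 10 and 0.16 and 0.15 for the other 30. In B2 itself 8 of the 10 were under the dim line of 64, all but SAMHD1 and ISG15, so the size of their folds is uncertain. Because untreated and B1 lay together, these values separate B2 from the other arrays and not cisplatin from no cisplatin. RNA was taken from whole cultures, so fewer cells expressing a gene and less RNA per cell cannot be told apart.

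**Figure D2:**
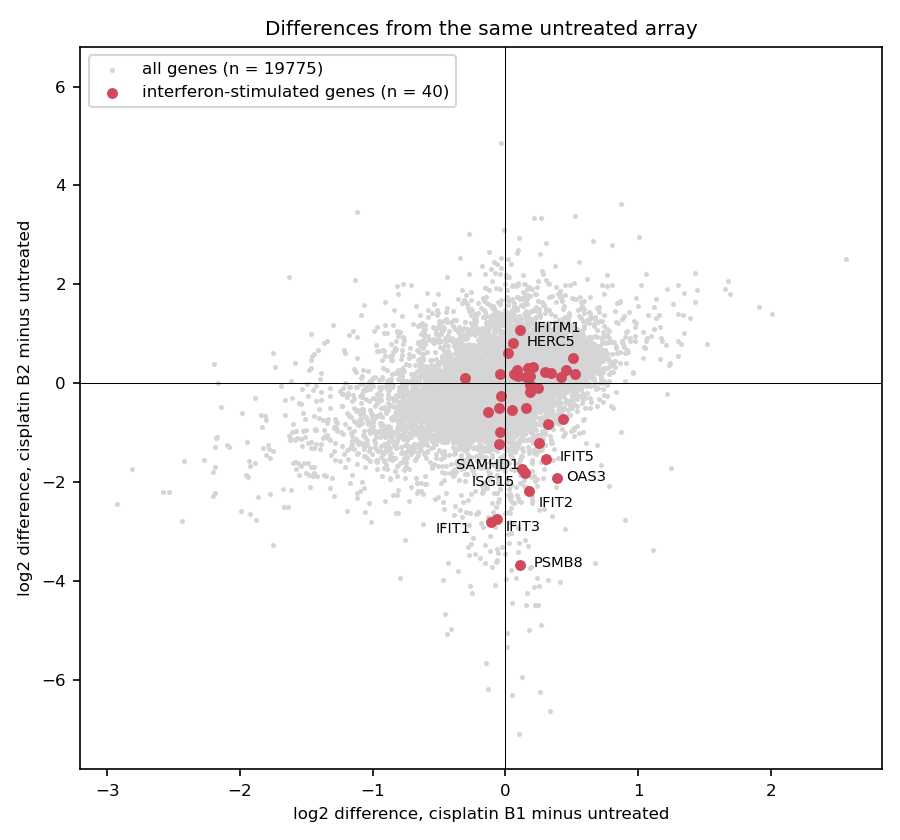
Log2 difference from the untreated array in cisplatin B1 (horizontal axis) and in cisplatin B2 (vertical axis) for all 19775 genes (grey) and the 40 members (red), 1 point a gene. The members form a narrow vertical band between −0.31 and 0.52 in B1 that runs from 1.08 for IFITM1 down to −3.67 for PSMB8 in B2; both axes share the untreated array, so the slope of the cloud is not read as a result.

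**Figure D3:**
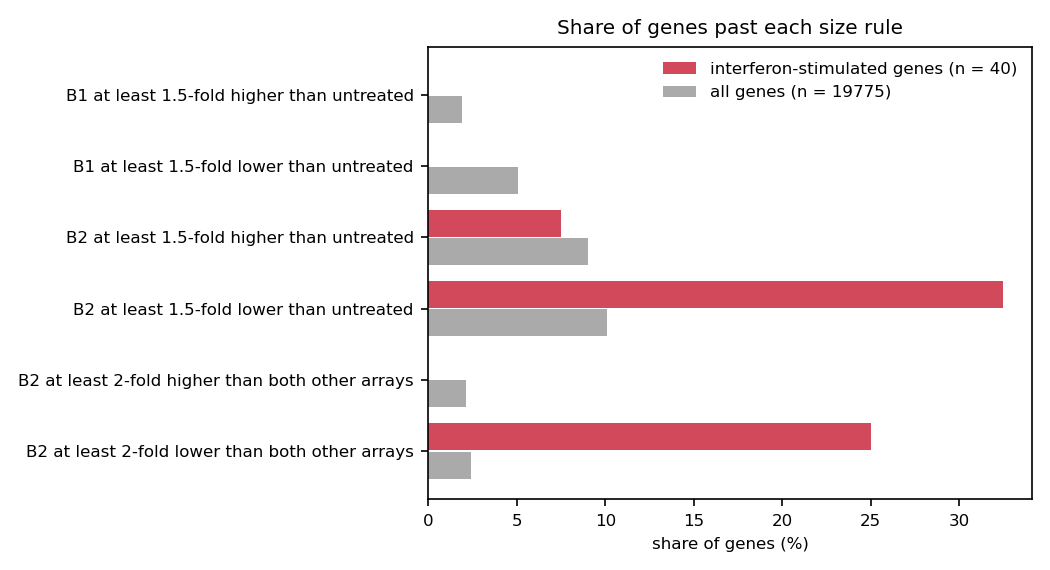
Share of genes (%) past each size rule, for the 40 members (red bars) and all 19775 genes (grey bars), from single arrays with no error bars. Only the 2 rules for lower values in B2 show a longer bar for the members, at 32.5% against 10.1% and 25% against 2.41%, and a missing red bar stands for 0 members.

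B2 differed from the other arrays in general. Log2 differences over all genes had an SD of 0.33 for B1 against untreated, 0.60 for B2 against untreated and 0.56 for B2 against B1. All 9 measured squamous epithelial markers of 12 listed had a mean log2 of at least 6, and their summed intensity was 20672 in untreated cells, 21111 in B1 and 30805 in B2. Among these markers the largest B2 differences were in KRT14, a basal keratin, and KRT5, its partner. KRT14 was at 277.6, 275.8 and 2372, and KRT5 at 1217, 1345 and 4251. In B2, 8 of the 9 were above untreated (56.6% of all genes were), with a median difference of 0.52. EPCAM was the 1 below it, at 4545, 4503 and 4190, and CDH1 differed by only 0.055 in B2. The 11 measured leukocyte markers of 13 were all dim, with sums of 251, 285 and 269, and PTPRC, a gene of all leukocytes, stood at 6.24, 5.24 and 5.50. The 5 dendritic cell markers (sums 129, 148 and 152) and the 5 endothelial ones (112, 135 and 136) were also all dim. Of the 7 fibroblast markers (sums 297, 327 and 420), 5 were dim. The 2 bright ones were THY1, at 59.5, 61.6 and 143.9 and so high in B2, and COL1A1, at 121.7, 154.7 and 158.9. The mean over the 5 probe sets of COL1A1 differed by 0.10 in B1 and 0.77 in B2. The part of these array-wide differences in the low interferon-stimulated genes was not tested.

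The IFIT genes encode proteins with tetratricopeptide repeats, of which IFIT1 binds viral RNA caps and works in complex with IFIT2 and IFIT3. All 4 measured family members were high in untreated cells and B1 and low in B2. The intensity of IFIT1 was 146.8 without cisplatin, 136.4 in B1 and 21.0 in B2, log2 differences of −0.11 and −2.80. IFIT3 was at 139.8, 133.5 and 20.9, again lowest in B2. IFIT2 was at 150.3, 170.2 and 33.4, with B2 4.51-fold lower. The smallest B2 difference of the 4 was that of IFIT5, a relative that binds RNA on its own, at 143.4, 177.7 and 49.6, with B2 2.89-fold lower and B1 slightly higher (0.31). In limma the mean difference was −1.45 (SE 1.36) for IFIT1, −0.996 (SE 1.19) for IFIT2, −1.40 (SE 1.35) for IFIT3 and −0.61 (SE 0.94) for IFIT5, each with an adjusted p of 0.97. For each of the 4, the gap between B1 and B2 was larger than the gap between their mean and the untreated array. All 4 B2 values were below an intensity of 64, where a signal may be background, so the folds are uncertain. The 4 genes lie on chromosome 10, IFIT2 beside IFIT3 and IFIT1 beside IFIT5 with no coding gene between. Under quantile normalization the B1 values of IFIT1 and IFIT3 moved above untreated, and the 10 members low in B2 were the same 10.

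The other antiviral effectors held a few bright genes that were low or high in B2, 1 bright gene that was level there, and a larger number of dim ones. OAS3, which makes the 2-5A signal that activates the RNA-cutting enzyme RNase L, was at 236.6 in untreated cells, 309.9 in B1 and 62.4 in B2, so that B2 was 3.79-fold below untreated while B1 was above it (limma mean −0.77, SE 1.17, adjusted p = 0.97). SAMHD1, which breaks down the nucleotides that retroviruses need, was at 287.7, 314.0 and 86.8, with B2 3.31-fold lower (limma mean −0.80, SE 0.94, adjusted p = 0.97). OASL, a relative of the OAS enzymes that boosts sensing by RIG-I, was at 93.4, 126.4 and 56.4, with B2 1.66-fold lower than untreated. In these 3 genes B1 was the highest array and B2 the lowest. IFITM1, a membrane protein that hinders virus entry, ran the other way, at 318.7, 344.7 and 676.0, with B2 2.12-fold higher. The exonuclease ISG20 was at 68.7, 77.9 and 67.0. Its other probe set, nearly as bright, was at 60.4, 87.8 and 60.5, higher in B1 by 0.54. ISG20 was thus level in B2 on both probe sets, and its B1 difference depended on the probe set. MX1 and MX2 are GTPases that trap incoming viruses, RSAD2 (viperin) makes an antiviral nucleotide, BST2 (tetherin) holds budding viruses on the cell, and TRIM22 is a ubiquitin ligase. The effectors MX1, MX2, OAS1, OAS2, RSAD2, BST2 and TRIM22 all had a mean log2 under 6, so their differences, from −0.04 to 0.52 in B1 and from −0.49 to 0.27 in B2, are those of weak signals. For the 16 effectors median differences were 0.18 (B1) and −0.38 (B2). In the set that was at least 2-fold lower in B2 there were 6 of the 16, where 2.41% of all genes met that rule.

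ISG15 is a ubiquitin-like protein, and the enzymes that attach and remove it did not share its B2 value. ISG15 itself was at 415.1 without cisplatin, 458.8 in B1 and 117.7 in B2, with B2 3.53-fold lower (limma mean −0.84, SE 0.996, adjusted p = 0.97). HERC5, the ligase that attaches ISG15 to newly made proteins, was at 290.1, 301.7 and 508.1, with B2 1.75-fold higher (limma mean 0.43, SE 0.42, adjusted p = 0.97). UBE2L6, the conjugating enzyme that passes ISG15 to HERC5, was at 204.5, 217.6 and 245.0. USP18, which removes ISG15 and also restrains the type I interferon receptor, was at 112.1, 117.3 and 128.5. HERC6, a relative of HERC5 encoded next to it, was at 100.4, 112.1 and 109.8. On the probe sets used, these 4 enzymes were above untreated in both arrays, by at most 0.16 in B1. Over all genes, 39.2% were above untreated in both. The 4 stayed above it in both arrays after quantile normalization and median centring. The other HERC6 probe set, a dim one, was below untreated in both arrays (−0.15 and −0.11).

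All 3 measured transcription factors were above untreated in both cisplatin arrays, where 39.2% of all genes were. IRF9, a DNA-binding part of the complex with STAT2, was at 139.4, 141.5 and 212.8, with B2 1.53-fold higher (limma mean 0.32, SE 0.35, adjusted p = 0.97). In B1 IRF9 differed from untreated by 0.02, where the median over all genes was 0.03. IRF1, which can act on the same promoters without STAT proteins, was at 129.8, 145.7 and 160.5. IRF7, which drives type I interferon genes, was dim at 20.5, 25.9 and 23.6. All 3 stayed above untreated in both arrays under quantile normalization and median centring. Of the 3 members that were at least 1.5-fold higher in B2, IFITM1, HERC5 and IRF9, each was within 0.11 of untreated in B1.

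On the probe sets used, the RNA sensors were below untreated in both arrays, by at most 0.13 in B1. Over all genes, 27.4% were below untreated in both. DDX58 (RIG-I, current symbol RIGI), which detects RNA ends that carry a triphosphate, was at 142.9 in untreated cells, 139.2 in B1 and 71.9 in B2, with B2 1.99-fold lower (limma mean −0.51, SE 0.51, adjusted p = 0.97). DDX60, a helicase reported to assist RIG-I, was at 54.4, 52.6 and 23.3, with B2 2.33-fold lower (limma mean −0.64, SE 0.61, adjusted p = 0.97). IFIH1 (MDA5), which detects long double-stranded RNA, was at 92.1, 84.3 and 61.5. In all 3 genes B2 was the lowest array, and the B1 value of DDX58 moved above untreated under quantile normalization. All 3 probe sets of DDX58 were below untreated in both arrays, by 0.38 and 0.25 for one of those not used and by 0.39 and 0.74 for the other. Of the other IFIH1 probe sets, both dim, 1 was below untreated in both arrays (−0.13 and −0.20). The last one was above untreated in B1 (0.50) and below it in B2 (−0.21).

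The antigen processing genes lie side by side on chromosome 6, in the order PSMB8, TAP1, PSMB9, and their B2 values differed. PSMB8, a catalytic subunit that replaces a standard one to form the immunoproteasome, was at 232.8, 251.4 and 18.3. Its B2 value is so dim that the signal may be background there, and the limma mean of −1.78 had an SE of 1.90 and an adjusted p of 0.97. PSMB9, another immunoproteasome subunit, was at 270.9, 280.3 and 185.8, with B2 1.46-fold lower (limma mean −0.25, SE 0.35, adjusted p = 0.97). TAP1, a subunit of the pump that carries peptides to HLA class I molecules, was at 261.2, 296.6 and 288.0, above untreated in both arrays. PSMB8 has 1 probe set here, so its B2 value has no second measurement.

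CXCL10 and CXCL11 are chemokines that draw T cells through the receptor CXCR3, and both were dim. CXCL10 was at 17.1, 19.5 and 15.1, and CXCL11 at 7.72, 8.89 and 9.66, with limma means of 0.0014 (SE 0.26, adjusted p = 0.9995) and 0.26 (SE 0.19, adjusted p = 0.97). The B1 and B2 values of CXCL10 lay on opposite sides of untreated, and the sign of its mean turned under quantile normalization and median centring.

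PARP9 and PARP14 belong to the enzymes that modify proteins with ADP-ribose, and SP100 builds nuclear bodies that restrain viral DNA. PARP14 was at 152.4, 123.2 and 164.6, and had the lowest B1 difference of the 40 members (−0.31). PARP9 was at 122.6, 129.7 and 137.7, and its partner gene next to it, DTX3L, which encodes the ubiquitin ligase bound to PARP9 and is named here after its values were seen, was at 748.9, 752.1 and 567.1. SP100 was at 371.4, 358.6 and 261.7, below untreated in both arrays (limma mean −0.28, SE 0.29, adjusted p = 0.97). The direction of SP100 in B1 turned under quantile normalization.

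Of the inducible genes with less settled roles, IFI44 and IFI35 were low in B2 and the others were not. IFI44 was at 53.6 in untreated cells, 63.8 in B1 and 23.1 in B2, with B2 2.31-fold lower (limma mean −0.48, SE 0.75, adjusted p = 0.97). IFI35, a leucine zipper protein that binds NMI, was at 94.0, 117.4 and 53.1, with B2 1.77-fold lower (limma mean −0.25, SE 0.60, adjusted p = 0.97). In both genes B1 was the highest array. IFI6, a small membrane protein that restrains cell death, was at 175.8, 187.7 and 195.0, and IFI27, also mitochondrial, was dim at 39.4, 52.7 and 43.3. IFI44L, the gene next to IFI44, was dim at 7.79, 11.1 and 11.1, and its difference of 0.51 in each array gave the smallest unadjusted p among the members (0.070, limma adjusted p = 0.97).

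Several probe sets for the same gene give a second view of the low B2 values. For SAMHD1, 5 of 6 probe sets were at least 2-fold lower in B2 than in both other arrays, with differences from untreated of −1.73 to −2.14, and the sixth was near the floor of the arrays at 6.51, 7.59 and 6.21. Both probe sets of IFIT2 met the rule (−2.17 and −1.49) and so did both of IFIT5 (−1.53 and −1.90). The other probe set of IFIT3 was lower in B2 by less, at 67.5, 74.2 and 35.8 (−0.91). For OAS3 the other probe set was dim and differed by −0.25, and for IFI44 it was dim and differed by −0.36. The remaining members of the set, IFIT1, ISG15, DDX60 and PSMB8, had 1 probe set each. Both OASL probe sets were lower in B2, by 0.73 and 0.98, whereas PARP9 had one at 0.17 and one at −0.60. The probe sets used for SAMHD1 and DDX58 are of a class whose probes may also match other transcripts.

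**Figure D4:**
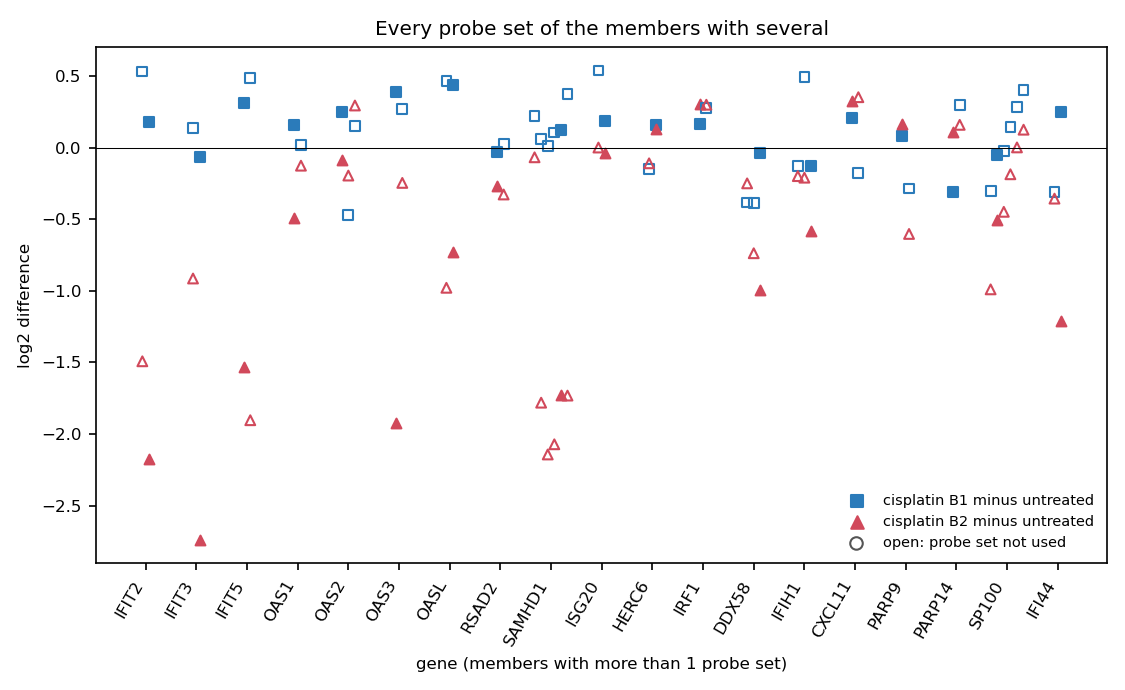
Log2 difference from the untreated array (vertical axis) of every probe set of the 19 members with more than 1 probe set, in cisplatin B1 (squares) and cisplatin B2 (triangles), with filled symbols for the probe set used and open symbols for the others, 1 point a probe set and no error bars. SAMHD1, IFIT2 and IFIT5 have several triangles below −1 that stand together, while OAS3 and IFI44 have 1 low triangle and 1 near 0.

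The motif counts were also split by the B2 value, as a description. The ISRE core was found in 8 of 9 members of the low set with a window (88.9%) and in 14 of the other 24 (58.3%), and GAS in 2 of 9 (22.2%) and 11 of 24 (45.8%). SAMHD1 was the one without a match in its window, and no match says only that these letters are not there. HERC5 and IFITM1, which were high in B2, and IFI6, which was level, held the element too, as printed. The genomic span, the distance between its outermost annotated bases, had a median of 13.4 kb in the low set, 18.6 kb over the 40 members (1.04 to 129 kb) and 24.7 kb over all genes. With the trend of the difference on span removed, the number of members at least 2-fold lower in B2 was again 10.

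Neighbours on a chromosome did not always share their B2 value. IFIT2, IFIT3, IFIT1 and IFIT5 were all low, and MX2 and MX1 were both dim. By contrast IFI44 differed by −1.21 and IFI44L by 0.51, PSMB8 by −3.67 and TAP1 by 0.14, and OAS3 by −1.92 beside OAS1 at −0.49 and OAS2 at −0.09. IFITM1, higher in B2 by 1.08, lies between IFITM2 and IFITM3, which are listed with the pathway below and were lower by 2.10 and 4.49. The IFITM transcripts resemble each other and the probe sets of IFITM2 and IFITM3 are of the class that may match other transcripts, so how these values divide among the 3 genes is uncertain.

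The rest of the pathway was read from 8 lists with 129 genes, of which 117 were measured. Their median difference was 0.04 in either cisplatin array, and 50 were above (42.7%, against 39.2% of all genes) and 29 below untreated in both arrays (24.8%, against 27.4%). At least 1.5-fold in both arrays was reached upwards by SOCS1 and SLFN5 and downwards by TRAF3 and PIAS1, which is 1.71% each way, against 0.956% and 2.65% of all genes. Limma called none of the 117 after adjustment, and the 4 with an unadjusted p under 0.05 (3.42%) compare with 2.86% of all genes, so these shares are near the background. In B2 alone, by the rule of 2-fold from both other arrays, 5 were lower (4.27%, against 2.41% of all genes) and 3 higher (2.56%, against 2.1%). All 5 lower ones, IFITM2, IFITM3, GBP3, NMI and CCL5, belong to the list of other interferon-stimulated genes. Whether that list differed from the others was not tested. The 18 measured interferons were all dim, where a 2-fold fall could hardly be seen. TBK1 and TRAF3 were 2.06-fold and 2.74-fold below untreated in B2, and missed the rule because their B1 values were less than 2-fold above B2.

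**Figure D5:**
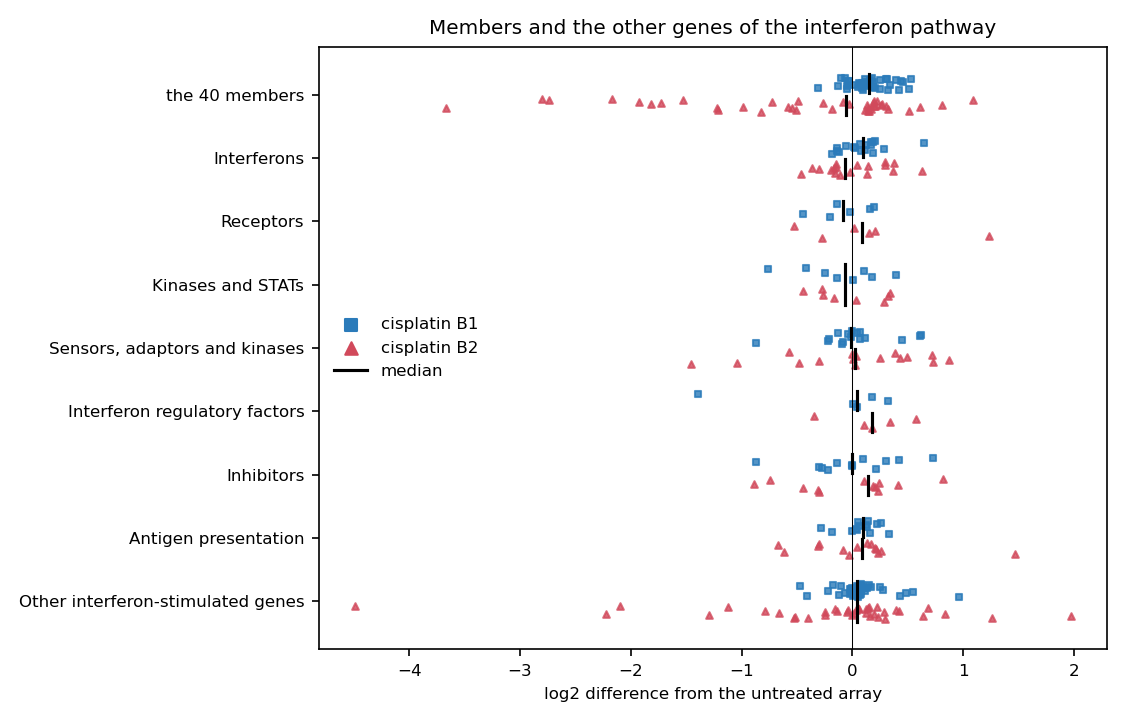
Log2 difference from the untreated array (horizontal axis) for the 40 members and the 8 lists of other pathway genes, in cisplatin B1 (squares) and cisplatin B2 (triangles), 1 point a gene, with black bars for medians and no error bars. Differences below −2 occur only in B2, and only among the members and the other interferon-stimulated genes.

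The interferons themselves were at the dim end in all arrays. All 18 measured interferon genes of 21 listed had a mean log2 under 6, and IFNB1, the type I interferon that most cell types can make, was at 7.71, 9.42 and 9.93. The receptor chains were 6 of 6 measured, all bright, with 2 above and 2 below untreated in both arrays (39.2% and 27.4% of all genes were). IFNLR1, the chain specific to type III interferon, was at 163.8 in untreated cells, 120.4 in B1 and 384.8 in B2. That probe set differed by −0.44 in B1 and 1.23 in B2. The mean over both probe sets of the gene was −0.14 and 0.59, so the other probe set did not share these differences. IFNAR1, a chain of the type I receptor, was at 185.3, 168.2 and 128.5. Among the kinases and STATs, 8 were measured. JAK1 was at 810.5, 607.3 and 669.4, with all 5 of its probe sets below untreated in both arrays, and STAT3 was at 912.9, 771.2 and 760.0. Neither reached 1.5-fold in either array.

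Of the 16 measured sensors, adaptors and kinases that lead to interferon production, 6 were above and 5 below untreated in both arrays. Over all genes these shares were 39.2% and 27.4%, so both counts are near the background. TRAF3, an adaptor ubiquitin ligase below RIG-I and Toll-like receptors, was at 415.0, 227.0 and 151.4, lower in both cisplatin arrays (limma mean −1.16, SE 0.34, unadjusted p = 0.043, adjusted p = 0.97). TBK1, the kinase that activates IRF3, was at 615.2, 527.3 and 298.8. TICAM1 (TRIF), the adaptor of Toll-like receptor 3, was at 112.6, 153.2 and 185.9. In TRAF3 both cisplatin arrays were at least 1.5-fold below untreated, which no member was. IRF2, a repressor that opposes IRF1, was at 97.1, 37.0 and 76.4, lowest in B1, and IRF3, which TBK1 activates, was at 164.0, 184.7 and 243.5.

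Among the 12 inhibitors, the SOCS proteins block JAK kinases, the PIAS proteins restrain STATs and the PTPN phosphatases undo their phosphorylation. SOCS1 was dim and higher in both arrays, at 35.2, 58.4 and 61.9 (limma mean 0.77, SE 0.19, unadjusted p = 0.026, adjusted p = 0.97). PIAS1 was lower in both, at 248.4, 135.8 and 134.4 (limma mean −0.88, SE 0.18, unadjusted p = 0.017, adjusted p = 0.97), as were all 3 of its probe sets. Of the 4 SOCS1 probe sets, 3 were above untreated in both arrays, and the mean over all 4 differed by 0.43 in B1 and 0.61 in B2. On the probe sets used, the cisplatin arrays of SOCS1 and PIAS1 stood close together and apart from the untreated array. That is the reverse of the arrangement in IFIT1 or PSMB8. PTPN1 was at 571.4, 464.9 and 419.5, and SOCS2 at 1348, 1440 and 804.9. The mean over all 3 SOCS2 probe sets differed by 0.30 in B1 and −0.26 in B2. In the antigen presentation list 14 of 16 were measured, with medians of 0.09 and 0.09. ERAP2, which trims peptides for HLA class I, was at 83.5, 93.0 and 230.6, and HLA-F, a class I molecule, was at 579.4, 674.9 and 363.6.

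The list of other interferon-stimulated genes held 38 measured genes of 42, with medians of 0.05 and 0.04. The rule for low values in B2 was met by 5 of the 38, where 2.41% of all genes met it. IFITM3, which traps viruses in endosomes, was at 2865 in untreated cells, 3184 in B1 and 127.4 in B2, with B2 22.5-fold lower (limma mean −2.17, SE 2.32, adjusted p = 0.97). NMI, the partner of IFI35, was at 758.3, 724.2 and 162.6, and IFITM2, named after its values were seen, was at 661.1, 699.0 and 154.4. These 3 resembled the members that were low in B2, with untreated and B1 close together and B2 far below. SLFN5, a Schlafen protein that acts as a transcriptional regulator, was at 301.6, 588.8 and 723.5, higher in both cisplatin arrays (limma mean 1.11, SE 0.24, unadjusted p = 0.018, adjusted p = 0.97), as was each of its 6 probe sets.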

How the data were processed

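Expression of KYSE140 cells was measured on 3 Affymetrix arrays, 1 untreated and 2 with cisplatin (labelled 10 mM, 12 h). The authors deposited intensities of 54675 probe sets on a linear scale from 3.03 to 19645. They were made with RMA, per the submitters' processing notes, a method of background correction, normalization across arrays and probe summary; the sources used here give neither its version nor the chip definition. Log2 was taken with no pseudocount.

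Control probe sets (62) were left out. Platform annotation gave 1 symbol to 41091 probe sets, several to 1801 and none to 11721. Symbols were updated to GRCh38.p14 (19734 of 19775 genes), and the probe set brightest on average stood for its gene. Limma 3.58.1 in R 4.3.3 compared cisplatin with untreated over all genes (1 residual and 2.01 prior degrees of freedom, Benjamini-Hochberg adjustment, threshold 0.05), assuming that the lone untreated array varies like the pair. The other counts are size rules with no test. Motifs were searched on both strands of RefSeq promoter windows.

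Members with both arrays past 1.5-fold, bright members whose arrays lay at least 1 apart on the log2 scale, and the 2 with the largest mean absolute difference per role were to be given in full. Of the pathway lists, genes past 1.5-fold in both arrays and up to 2 bright ones with the largest mean difference per list were named. Exceptions are marked. The members and lists were chosen with earlier results of these data known. Alternatives covered the dim filter, probe sets, normalization, pseudocount, span, prior, fold threshold and each array left out.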

Additional observations from a re-analysis of the deposited data

How the results depend on the processing

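Leaving out one cisplatin array moved most counts, since a rule was then read on the other array. Members higher ran from 19 to 31 and lower from 9 to 21, those at least 1.5-fold higher from 0 to 3 and lower from 0 to 13, the higher counts of fold-lower genes coming from B2 alone. Over the same settings the mean difference of IFIT2 ran from −2.17 to 0.18, IFIT5 from −1.53 to 0.31, OAS3 from −1.92 to 0.39, OASL from −0.73 to 0.44, SAMHD1 from −1.73 to 0.13, ISG15 from −1.82 to 0.14, PSMB8 from −3.67 to 0.11, PSMB9 from −0.54 to 0.049, CXCL10 from −0.18 to 0.19, PARP14 from −0.31 to 0.11, IFI44 from −1.21 to 0.25 and IFI35 from −0.82 to 0.32. With genes of mean log2 of at least 6 alone, members higher in both arrays numbered 10 and the B2 median was −0.52, as the 14 dim members left out had a B2 median of 0.16. Quantile normalization left 3 members lower in both, and the cause was not tested. CXCL10 turned to −0.046 under quantile normalization, −0.012 under median centring and −0.11 with the span trend removed; PARP14 turned to 0.065 with all probe sets averaged and 0.0091 under quantile normalization. The remaining 116 of 121 values of the 21 members given in full kept their direction, and no alternative, including both other priors, gave a limma call among the members. Members at least 2-fold lower in B2 numbered 8 to 10 under the other settings. That rule and its thresholds were chosen after seeing the data, and at other thresholds 13 were at least 1.5-fold lower and 3 higher in B2 than in both other arrays, and 4 at least 4-fold lower and 0 higher. A limma count with one array left out could not be given, as no residual degree of freedom is left. No paired analysis was possible because the untreated group has 1 array, so the groups share fewer than 2 replicate numbers. The number of arrays limits every value.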

Other observations

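Further interferon-stimulated genes outside the 40 members, picked after their values were seen, differed in B2 and not in B1. GBP3, a guanylate-binding protein, was at 203.2 without cisplatin, 209.4 in B1 and 93.2 in B2. CCL5, a chemokine for T cells and monocytes, was at 107.1, 111.9 and 43.5. Of the 3 CCL5 probe sets only this 1 was at least 2-fold lower in B2 than in both other arrays. The mean over all 3 differed by 0.24 in B1 and −0.55 in B2. TNFSF10 (TRAIL), a ligand that can trigger cell death, ran the other way at 25.3, 26.7 and 99.3. Their log2 differences in B2 were −1.12, −1.30 and 1.97, each from 1 array and with no test of B2 against the rest.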
